A study of Mus musculus with 5 samples.

Results

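The haematopoietic niche factors of marrow stroma described here are 9 genes whose products stromal cells use to retain, feed or anchor blood cells: Cxcl12, Kitl, Flt3l, Il7, Il15, Il6, Lif, Angpt1 and Vcam1. They were chosen by name, with earlier results of these data known, from 30046 rows of read counts, and all 9 had a row. The counts came from 5 bulk RNA-seq libraries of Cxcl12-GFPhigh tdTomato+ cells that were sorted from mouse femurs at postnatal day 21 of mice given tamoxifen once, at embryonic day 12.5. There were 3 libraries of genotype Cxcl12(GFP/+); Dlx5(CreER/+); R26R(tdTomato/+), called Dlx5CE-E12.5, and 2 of genotype Cxcl12(GFP/+); Fgfr3-iCreER; R26R(tdTomato/+), called Fgfr3CE-E12.5 and numbered 2 and 3 as in their labels. Dlx5-CreER marks fetal cells around the cartilage template and Fgfr3-iCreER marks fetal chondrocytes, so the comparison asked how marrow stromal cells of perichondrial and of cartilage origin differ. Every mouse carried GFP in place of 1 Cxcl12 allele, and GFP was also the colour of the sort. The sorted population is therefore defined by the locus of the most abundant member. The littermates of a genotype were pooled before sorting, and the study counts the libraries as biologically independent samples. The labels do not tie a library to particular mice, so each p-value refers to the spread between these libraries of pooled cells.

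Stromal cells rich in CXCL12, known as CAR cells, are a main source of cytokines in adult marrow. CXCL12 is a chemokine that holds CXCR4-bearing stem cells, B cell precursors and neutrophils in the marrow, and stem cell factor, the product of Kitl, is needed by stem cells and by erythroid and mast cell precursors through the receptor KIT. IL-7 is the growth factor of early B cells, IL-15 supports natural killer and memory T cells, FLT3 ligand supports dendritic and early lymphoid cells, IL-6 and LIF signal through the shared chain gp130, angiopoietin-1 acts on the endothelial receptor TIE2, and VCAM-1 is the adhesion partner of the integrin VLA-4.

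RefSeq promoter windows were available for 5 of the 9 genes (assembly GRCm38.p6). Windows of 250 bases that end at the base before the RefSeq transcript start are printed for Cxcl12, the most abundant member, for Il6, the member whose Dlx5CE-E12.5 libraries differed most from each other, and for Lif, whose groups overlapped. They are read 5′ to 3′ along the gene, and lie at chr6:117168285-117168534 on the plus strand for Cxcl12, at chr5:30012864-30013113 on the plus strand for Il6 and at chr11:4257318-4257567 on the plus strand for Lif. The last 11 bases of the Lif window lie inside the gene as GENCODE annotates it, whose start is the one given for Lif further on. Capitals mark matches, on either strand, to the motif letters searched.
Cxcl12: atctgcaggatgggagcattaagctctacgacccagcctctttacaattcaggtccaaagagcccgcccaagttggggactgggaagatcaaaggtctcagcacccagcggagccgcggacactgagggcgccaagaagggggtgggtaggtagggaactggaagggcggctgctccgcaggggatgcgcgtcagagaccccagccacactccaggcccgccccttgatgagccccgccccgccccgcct
Il6: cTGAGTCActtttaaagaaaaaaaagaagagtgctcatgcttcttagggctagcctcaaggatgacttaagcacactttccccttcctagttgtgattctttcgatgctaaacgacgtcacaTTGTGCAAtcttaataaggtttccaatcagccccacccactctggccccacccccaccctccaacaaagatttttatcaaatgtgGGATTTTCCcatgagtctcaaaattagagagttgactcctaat
Lif: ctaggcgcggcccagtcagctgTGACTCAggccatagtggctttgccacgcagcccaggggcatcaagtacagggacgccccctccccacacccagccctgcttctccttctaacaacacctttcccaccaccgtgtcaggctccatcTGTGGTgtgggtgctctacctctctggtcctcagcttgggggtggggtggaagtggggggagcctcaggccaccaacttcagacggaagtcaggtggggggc
The letters were TCCCNNGGG for EBF, TGTGGT for RUNX, TTGCNNAA for C/EBP, TGTTTAC for FOX, TGANTCA for AP-1, GGNNTTTCC for NF-kB and TATAAA for the TATA box, and matches of different motifs could overlap. The Il6 window held an AP-1 match 249 bases, a C/EBP match 128 bases and an NF-kB match 43 bases before the start. The Lif window held an AP-1 match at 228 bases and a RUNX match at 102 bases. The Kitl window, not printed, held a TATA match 25 bases before the RefSeq start, but GENCODE places the gene's start earlier, so that 191 bases of that window and the match lie inside the annotated gene. The windows of Cxcl12 and Flt3l held none of these letters. Among 32851 RefSeq windows of the same length, 6.75% held the AP-1 letters, 9.56% the C/EBP letters, 4.93% the NF-kB letters, 14% the RUNX letters, 12.4% the TATA letters, 5.6% the EBF letters and 3.17% the FOX letters. These matches describe letters, and no binding was measured.

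The libraries held 22035650 to 32563758 counts in Dlx5CE-E12.5 cells and 56355203 to 58166285 in Fgfr3CE-E12.5 cells. Of the 2 Cre reference sequences, cre followed the labels, with 416 to 467 counts in the Dlx5CE-E12.5 libraries and 1 in each Fgfr3CE-E12.5 library. The sequence iCre.ERT2 was higher in the Fgfr3CE-E12.5 libraries, with 4802 and 3762 counts, but also had 451, 519 and 521 counts in the Dlx5CE-E12.5 libraries, so it did not separate the lines completely. Per the study's methods the lineages were read on different sequencers with different read lengths, so lineage and sequencing run cannot be told apart. Marker lists differed between the groups. The summed level of 13 CAR cell markers that are not niche factors was 33287 to 34702 normalized CPM (counts scaled to a library total of 1e6) in Dlx5CE-E12.5 cells and 9408 to 13752 in Fgfr3CE-E12.5 cells. All 16 CAR cell markers, the niche factors Cxcl12, Kitl and Vcam1 included, were detected in every library. Of the 12 pan-leukocyte markers, which include the phosphatase gene Ptprc, 12 were called higher in Fgfr3CE-E12.5 cells, with sums of 1334 in replicate 2 and 2837 in replicate 3 against 412 to 502. In such bulk samples, fewer cells of a type and less RNA per cell cannot be told apart.

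Transcripts of most niche factors were less abundant in Fgfr3CE-E12.5 cells. Of the 9 genes, 8 reached the filter of at least 10 CPM in at least 2 libraries, and 7 of these were called lower in Fgfr3CE-E12.5 cells and 0 higher (edgeR quasi-likelihood test, Benjamini-Hochberg adjusted p under 0.05 with a log2 fold change beyond ±1). Kitl differed most, 6.98-fold, followed by Il6, Il7, Vcam1, Angpt1, Cxcl12 and Il15. Over all 10088 genes tested, 13.1% were called lower and 16.4% higher. At the adjusted p alone, 8 of the 8 were lower, against 23.4% of all genes. The median log2 fold change of the 8 was −1.88, beside 0.01 for all genes tested. In 8 of the 8, every Dlx5CE-E12.5 library lay above every Fgfr3CE-E12.5 library, a pattern that 34.1% of all genes tested showed. Because the genes were chosen with earlier results of these data known, these shares describe the list and do not test it. Lif, the ninth gene, passed only a lower filter of 1 CPM and was not called there.

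**Figure D1:**
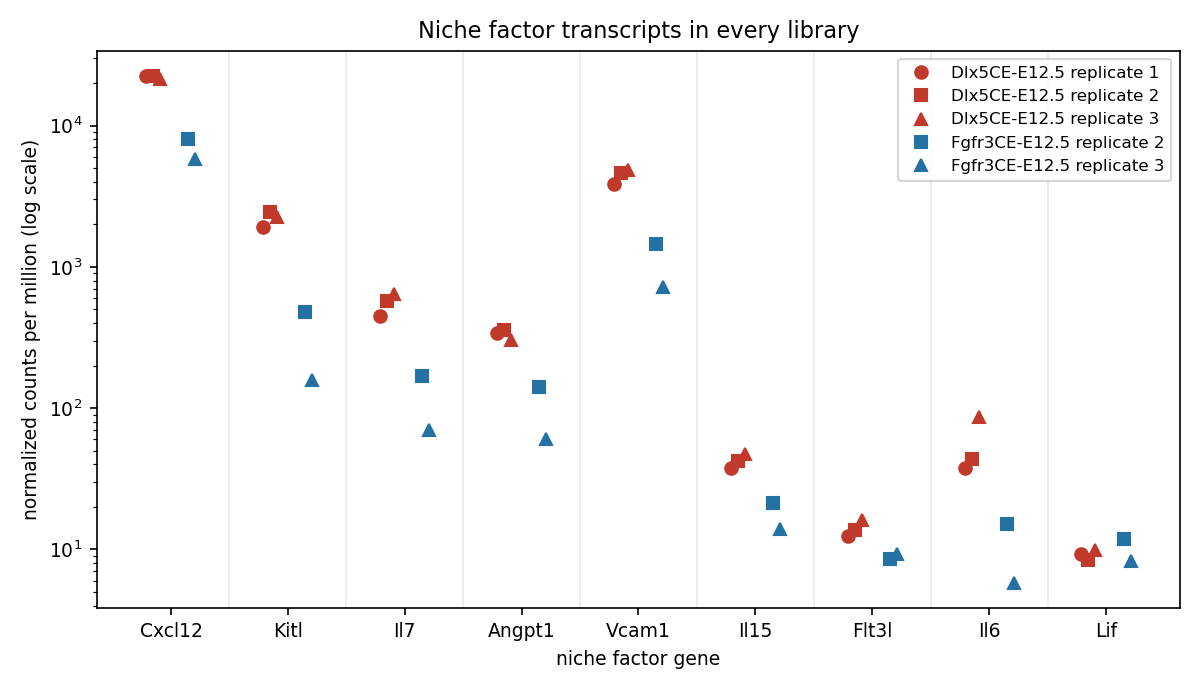
Normalized CPM on a log axis for the 9 niche factor genes, with 1 point per library, in red for the 3 Dlx5CE-E12.5 and in blue for the 2 Fgfr3CE-E12.5 libraries. The red points lie above the blue ones for 8 genes and mix with them for Lif, and for 8 of 9 genes Fgfr3CE-E12.5 replicate 2 lies above replicate 3.

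Per kb of exonic sequence, Cxcl12 led in both lineages. Its level was 2691 ± 79.6 CPM per kb (SD, n = 3) in Dlx5CE-E12.5 cells and 848 ± 196 (SD, n = 2) in Fgfr3CE-E12.5 cells. Among all protein-coding genes it ranked 8 to 10 in the Dlx5CE-E12.5 libraries and 17 and 32 in the others. In Dlx5CE-E12.5 cells it was followed by Vcam1 at 502 ± 57.7, Kitl at 374 ± 45.9, Il7 at 98.0 ± 17.4, Angpt1 at 64.0 ± 5.32, Il6 at 22.9 ± 10.9, Il15 at 18.7 ± 2.12, Flt3l at 3.65 ± 0.487 and Lif at 2.11 ± 0.179 CPM per kb. Of these neighbours, Il6 and Il15 had overlapping ranges. In Fgfr3CE-E12.5 cells the order was Vcam1 at 122 ± 59.0, Kitl at 53.5 ± 38.0, Il7 at 21.0 ± 12.4, Angpt1 at 19.4 ± 11.0, Il15 at 7.80 ± 2.34, Il6 at 4.33 ± 2.73, Flt3l at 2.30 ± 0.130 and Lif at 2.30 ± 0.579 CPM per kb. There Kitl overlapped with Il7, Il7 with Angpt1, Il15 with Il6, and Flt3l with Lif. The order was thus the same in both groups apart from Il6 and Il15, whose ranges overlapped in each group. Kitl dropped from ranks 86 to 111 of all protein-coding genes to ranks 464 and 1902.

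Cxcl12 (ENSMUSG00000061353, chr6:117168535-117181367, plus strand, GRCm38) had 686816, 474632 and 534348 counts in the Dlx5CE-E12.5 libraries and 496416 and 367735 in the Fgfr3CE-E12.5 libraries. These were 1.97% to 2.15% of all counts in the former and 0.881% and 0.632% in the latter. The normalized levels of 22405, 22351 and 21252 CPM were close to each other, and those of 8068 and 5802 CPM in Fgfr3CE-E12.5 replicates 2 and 3 lay well below them. The fitted difference was −1.67 on the log2 scale, 3.17-fold (SE 0.23, adjusted p = 0.00138).

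Because GFP replaces 1 Cxcl12 allele, the egfp transcript reads the same locus. Its fitted difference was smaller, with 10683, 11055 and 12340 CPM against 7454 and 5647 CPM and a log2 fold change of −0.79 (SE 0.21, adjusted p = 0.0194), which is under the fold threshold. There were 2.10, 2.02 and 1.72 Cxcl12 counts for each egfp count in Dlx5CE-E12.5 cells and 1.08 and 1.03 in Fgfr3CE-E12.5 cells. The groups did not overlap, and the ratio was 1.84-fold higher in Dlx5CE-E12.5 cells. The two-sided exact permutation test over the 5 libraries gave p = 0.2, the smallest p that 3 against 2 allows. How reads were divided between Cxcl12 and the reporter is not given in the sources used here, and read length moved with lineage, so its part in this ratio was not tested. The deposited rows also list eyfp, a reporter that no genotype label names and that is close to egfp in sequence, with 3428, 3143 and 2999 counts in Dlx5CE-E12.5 cells and 0 and 6 in Fgfr3CE-E12.5 cells. Its part in the egfp counts, and so in each value scaled to egfp, was not tested. The tdtomato transcript, the lineage mark, was also called lower in Fgfr3CE-E12.5 cells (log2 fold change −1.26, adjusted p = 0.00302).

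Kitl (ENSMUSG00000019966, chr10:100015630-100100416, plus strand), the gene of stem cell factor, had levels of 1923, 2463 and 2240 CPM in Dlx5CE-E12.5 cells and of 475 and 158 CPM in Fgfr3CE-E12.5 replicates 2 and 3. The lowest Dlx5CE-E12.5 library lay far above both others, and the Fgfr3CE-E12.5 libraries differed 3.01-fold from each other, more than those of any other niche factor. The log2 fold change was −2.80 (SE 0.47, adjusted p = 0.00291). It was −3.73 without Fgfr3CE-E12.5 replicate 2 and −2.16 without replicate 3, and Kitl was called lower either way.

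The lymphoid cytokines were Il7, Il15 and Flt3l. Il7 (ENSMUSG00000040329, chr3:7569994-7613760, minus strand) had 447, 576 and 641 CPM in Dlx5CE-E12.5 cells and 169 and 69.6 CPM in Fgfr3CE-E12.5 cells, with no overlap. Its log2 fold change was −2.22, 4.66-fold (SE 0.39, adjusted p = 0.00358), and came to −2.92 without Fgfr3CE-E12.5 replicate 2 and −1.66 without replicate 3. A stretch of 105 bases, 1.9% of its exons, is shared with the antisense gene Gm16685. The strand setting of the counting was not given, so reads there cannot be told apart.

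Il15 (ENSMUSG00000031712, chr8:82331632-82403222, minus strand) was much less abundant, with 37.7, 42.0 and 47.3 CPM in Dlx5CE-E12.5 cells and 21.4 and 13.9 CPM in Fgfr3CE-E12.5 cells. Its log2 fold change was −1.26 (SE 0.23, adjusted p = 0.00427). Without Fgfr3CE-E12.5 replicate 3 it was −0.93, which lies under the fold threshold, so that its call rested on that library.

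Flt3l (ENSMUSG00000110206, chr7:45129788-45136432, minus strand) had 12.5, 13.8 and 16.2 CPM in Dlx5CE-E12.5 cells and 8.58 and 9.29 CPM in Fgfr3CE-E12.5 cells. It was the sole niche factor with a higher level in Fgfr3CE-E12.5 replicate 3 than in replicate 2. Its log2 fold change of −0.66 (SE 0.23, adjusted p = 0.0467) did not reach the fold threshold, and its adjusted p rose to between 0.106 and 0.161 when any library other than Dlx5CE-E12.5 replicate 1 was left out. Of its exonic bases, 22.1% are shared with the overlapping gene Gm45713 on the same strand, which was listed with 18 counts in Dlx5CE-E12.5 replicate 1 and 0 in the other libraries.

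The gp130 cytokines were Il6 and Lif. Il6 (ENSMUSG00000025746, chr5:30013114-30019981, plus strand) had 37.5, 43.5 and 86.0 CPM in Dlx5CE-E12.5 cells and 15.2 and 5.82 CPM in Fgfr3CE-E12.5 cells. Dlx5CE-E12.5 replicate 3 stood above its group, with a 2.29-fold range from lowest to highest, but the groups did not overlap. The log2 fold change was −2.41 (SE 0.53, adjusted p = 0.00894). It was −3.18 without Fgfr3CE-E12.5 replicate 2, −1.81 without Fgfr3CE-E12.5 replicate 3 and −1.95 without Dlx5CE-E12.5 replicate 3. The transcription factor gene Cebpd, named after its values were seen, was also high in that library, with 142, 177 and 852 CPM in Dlx5CE-E12.5 cells and 411 and 442 CPM in Fgfr3CE-E12.5 cells.

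Lif (ENSMUSG00000034394, chr11:4257557-4272514, plus strand) had 282, 178 and 250 counts in Dlx5CE-E12.5 cells and 724 and 520 in the deeper Fgfr3CE-E12.5 libraries. Its normalized levels of 9.20, 8.38 and 9.94 CPM overlapped with those of 11.8 and 8.20 CPM. In the fit at the lower filter, in which 16.6% of 13225 genes were called higher in Fgfr3CE-E12.5 cells, its log2 fold change was 0.10 (SE 0.26, adjusted p = 0.777). The sign was negative, −0.16, without Fgfr3CE-E12.5 replicate 2, and a correction for gene length gave −0.086, so that no direction can be given for Lif.

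Angpt1 and Vcam1 act on vessels and on adhesion. Angpt1 (ENSMUSG00000022309, chr15:42424723-42676977, minus strand) had 340, 357 and 303 CPM in Dlx5CE-E12.5 cells and 141 and 60.8 CPM in Fgfr3CE-E12.5 cells. All 3 of the former lay above both of the latter, and the log2 fold change was −1.72, 3.30-fold (SE 0.35, adjusted p = 0.00629). It was −2.38 without Fgfr3CE-E12.5 replicate 2 and −1.18 without replicate 3. The antisense gene Gm17473 shares 14.2% of its exonic bases and had 33 to 170 counts, so reads there cannot be told apart.

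Vcam1 (ENSMUSG00000027962, chr3:116109949-116129688, minus strand) had 3874, 4615 and 4857 CPM in Dlx5CE-E12.5 cells and 1454 and 714 CPM in Fgfr3CE-E12.5 cells. The groups were far apart, with a log2 fold change of −2.04, 4.10-fold (SE 0.33, adjusted p = 0.00256), and the Fgfr3CE-E12.5 libraries differed 2.04-fold from each other. Leaving out Fgfr3CE-E12.5 replicate 2 gave −2.56 and leaving out replicate 3 gave −1.55.

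**Figure D2:**
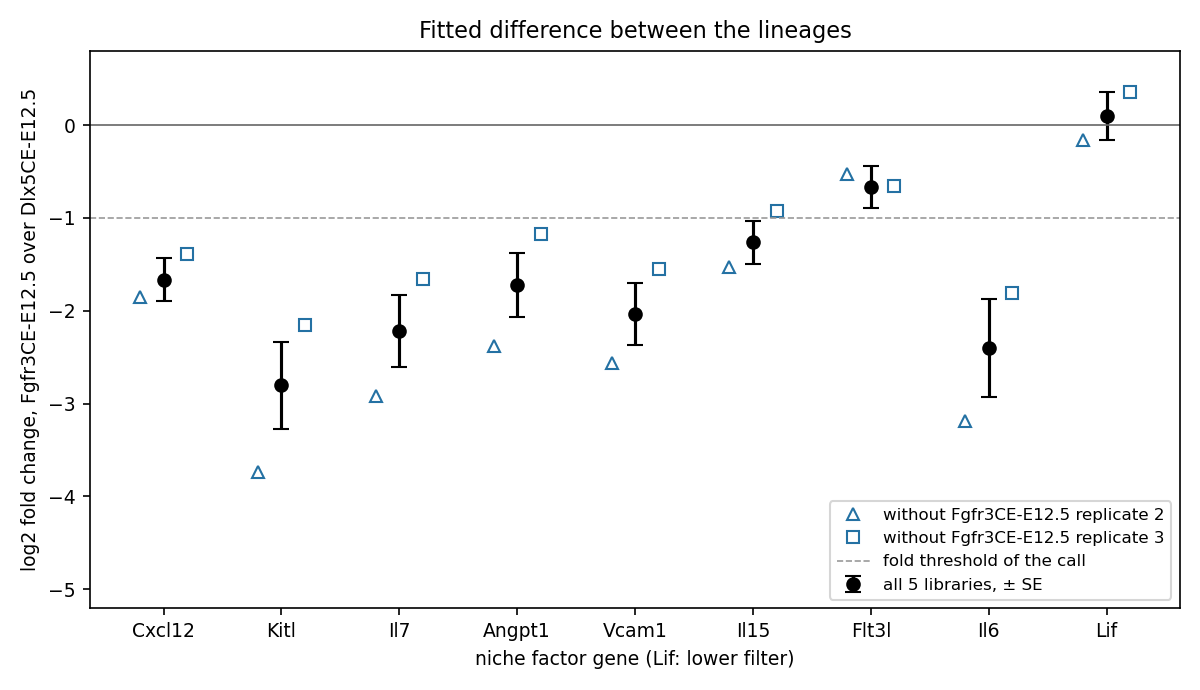
Fitted log2 fold change of each niche factor, Fgfr3CE-E12.5 over Dlx5CE-E12.5, with its SE (black), and the same value with 1 Fgfr3CE-E12.5 library left out (blue triangles without replicate 2, squares without replicate 3). The dashed line marks the fold threshold at −1, which Il15 crosses to −0.93 without replicate 3, and Flt3l and Lif lie above it in each fit.

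The Fgfr3CE-E12.5 libraries were unequal in the same sense for most members. Replicate 2 lay above replicate 3 for 8 of 9 niche factors, by 1.39-fold for Cxcl12 up to 3.01-fold for Kitl. The receptor gene Lepr, a marker of CAR cells that is no niche factor, differed 2.08-fold between them, and the CAR cell marker sum was likewise higher in replicate 2. All 12 pan-leukocyte and all 10 neutrophil markers were higher in replicate 3. The chondrocyte marker sum was 3468 CPM in replicate 2 and 496 CPM in replicate 3, against 136 to 142 CPM in Dlx5CE-E12.5 cells. Most of the sum in Dlx5CE-E12.5 cells came from Sox9, at 124, 117 and 122 CPM. Sox9 itself was lower in Fgfr3CE-E12.5 replicates 2 and 3, at 96.8 and 53.7 CPM. The part of these cell types in the niche factor differences was not tested.

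The marker lists also moved with lineage. Their counts stand beside 16.4% of all genes tested called higher and 13.1% called lower in Fgfr3CE-E12.5 cells. Of 10 neutrophil markers, 10 were called higher in Fgfr3CE-E12.5 cells, and the sum was 7022 and 17330 CPM against 2500 to 3118 CPM, led by the granule genes Ngp, Ltf and Mpo. Of 10 osteoblast markers tested, 6 were higher and 1 was lower, with sums of 22239 and 25335 CPM against 7060 to 8392 CPM, led by the collagenase gene Mmp13 and by Col1a1 and Spp1. Of 5 chondrocyte markers tested, 4 were higher, all through a filter that no Dlx5CE-E12.5 library reached, and Col2a1, the cartilage collagen, had 2598 and 343 CPM against 0.756 to 7.01 CPM. The other tested one, Sox9, had a log2 fold change of −0.69 (adjusted p = 0.0536) and was not called. Of 6 macrophage markers tested, 5 were higher and 0 lower, of 7 B lineage markers 3 were higher and 0 lower, and of 9 erythroid markers 0 were higher and 2 lower. The erythroid sums overlapped, with 17814 to 36306 CPM in Dlx5CE-E12.5 cells against 13891 and 20660 CPM. Of 8 mural and smooth muscle markers tested, 4 were higher and 1 was lower. Of the higher ones, 3 reached the filter through the Fgfr3CE-E12.5 libraries alone, and the lower one through Dlx5CE-E12.5 libraries alone. Their direction was thus set, and the mural sums overlapped, with 243 to 416 CPM against 313 and 245 CPM. In the pan-leukocyte, neutrophil, macrophage and B lineage lists, 1 higher marker each also reached the filter through Fgfr3CE-E12.5 libraries alone. The megakaryocyte sum, with Pf4, was 66.0 and 17.6 CPM against 8.19 to 8.87 CPM, and none of its 8 markers reached the filter. Endothelial markers were near the limit in both groups, with sums of 25.3 to 49.9 and of 37.3 and 57.4 CPM, and Pecam1, the 1 marker tested, was not called.

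**Figure D3:**
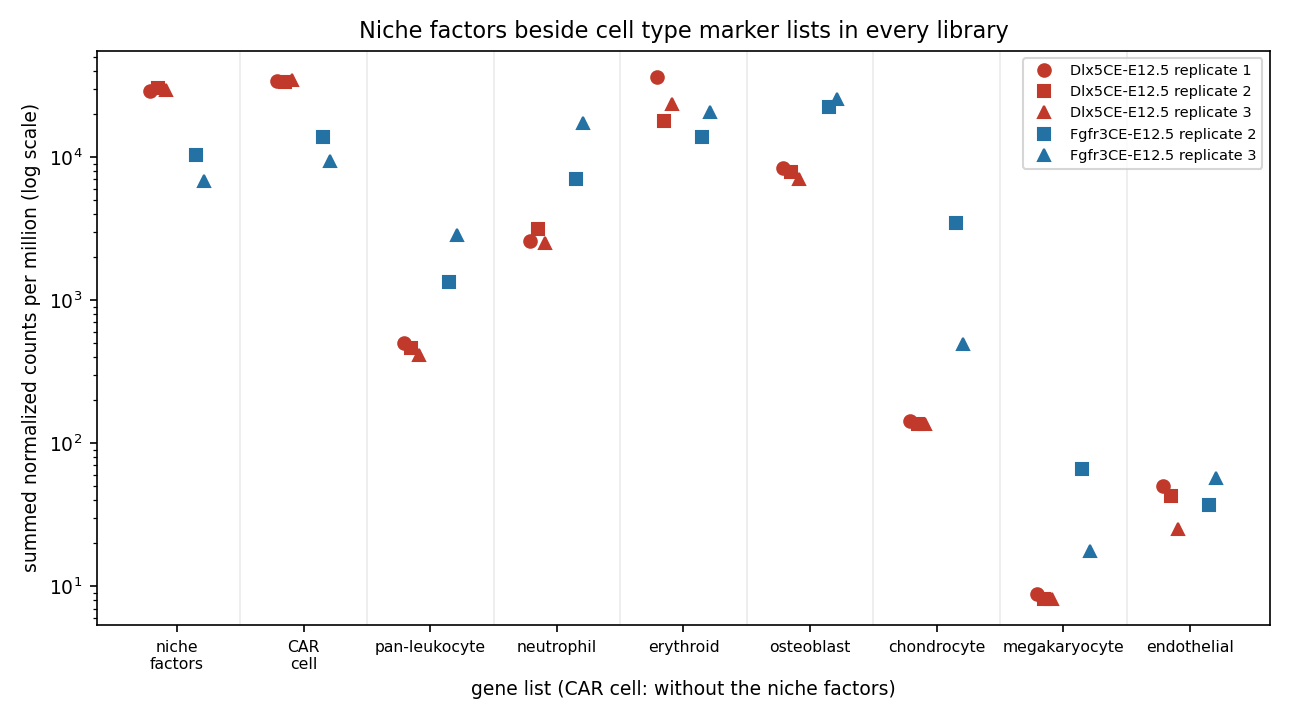
Summed normalized CPM on a log axis for the niche factors and for lists of cell type markers, with 1 point per library. The sums of niche factors and of the other CAR cell markers are lower in both Fgfr3CE-E12.5 libraries. Those of pan-leukocyte, neutrophil, osteoblast, chondrocyte and megakaryocyte markers are higher, and the erythroid and endothelial sums overlap.

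To set the niche factors against genes of the same cells, their counts were divided by those of egfp and of Lepr, scalings that were chosen after the data were seen. Per 100 egfp counts, 7 of the 9 were higher in every Dlx5CE-E12.5 library than in both others, beside 10.9% of the 10088 genes tested, whereas 70.2% of those genes were higher in both Fgfr3CE-E12.5 libraries. Kitl had 18.0, 22.3 and 18.2 counts per 100 egfp counts in Dlx5CE-E12.5 cells and 6.37 and 2.79 in Fgfr3CE-E12.5 cells. Lif was among the latter kind, with 0.0861, 0.0758 and 0.0806 against 0.158 and 0.145, and Flt3l overlapped. Per 100 Lepr counts, 6 of the 9 were higher in every Dlx5CE-E12.5 library, beside 6.52% of the genes tested. Il15 and Flt3l overlapped, and Lif was again higher in both Fgfr3CE-E12.5 libraries, as were 68.7% of the genes tested. Vcam1 gave 254, 304 and 305 counts per 100 Lepr counts against 134 and 137, and Kitl gave 126, 162 and 141 against 43.7 and 30.2. For Cxcl12 the order of the Fgfr3CE-E12.5 libraries was turned on this scale, with 742 in replicate 2 and 1110 in replicate 3 against 1333 to 1474, and Flt3l had 0.790 and 1.78. Dividing by Lepr thus brought the Fgfr3CE-E12.5 libraries close together for Vcam1, and it also narrowed their gap for Angpt1, Il7 and Il6. The gap of Kitl narrowed too, but at 43.7 and 30.2 it stayed wider than for those genes. For Cxcl12 and Flt3l the gap widened. Lif kept about the same gap, with 1.08 in replicate 2 and 1.57 in replicate 3, and Il15 had 1.97 and 2.66. Replicate 3 lay above replicate 2 on this scale for Cxcl12, Flt3l, Il15 and Lif.

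The fit itself was repeated with each library scaled to these genes in place of TMM, the edgeR scaling to the bulk of genes. Scaled to egfp, which moved the median of all genes to 0.82 on the log2 scale, 4 of the 8 were called lower, beside 4.53% of all genes. They were Kitl at −2.09, Il6 at −1.65, Il7 at −1.48 and Vcam1 at −1.28, whereas Cxcl12 at −0.88 (adjusted p = 0.00156) and Angpt1 at −0.99 (adjusted p = 0.00657) were lower but within the fold threshold. Scaled to Lepr, with a median of 1.14, the same 4 genes were called lower, beside 2.91% of all genes. Scaled to the sum of the 13 other CAR cell markers, of which 9 were themselves called lower and 1 higher under TMM, the median of all genes was 1.61, and 1.71% of all genes were called lower. Kitl was then the 1 niche factor called lower, at −1.34 (SE 0.32, adjusted p = 0.00234). Cxcl12 at −0.11 and Angpt1 at −0.23 were close to 0 on this scale, and Il15 and Flt3l turned to 0.28 and 0.95. Lif, fitted at the lower filter, was called higher at 1.68 (adjusted p = 0.000582), close to the median of 1.61 of all genes. On this scale 7787 of the 10088 genes tested were called higher.

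**Figure D4:**
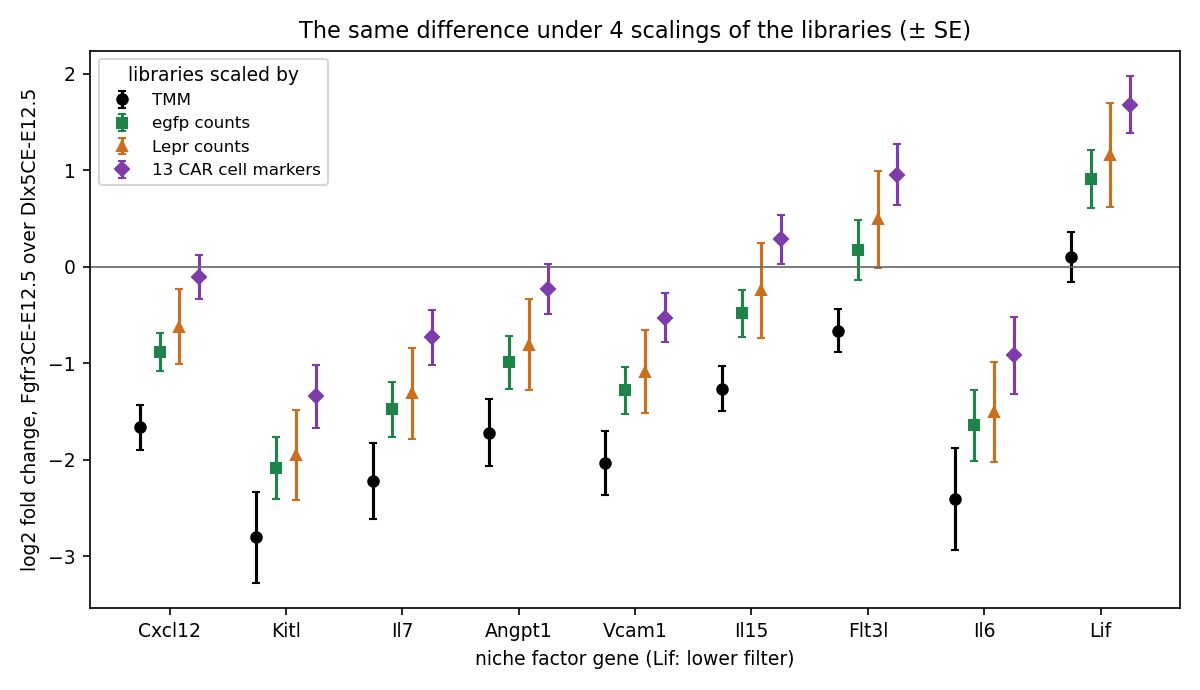
Log2 fold change with its SE of each niche factor, Fgfr3CE-E12.5 over Dlx5CE-E12.5, with the libraries scaled by TMM, by egfp counts, by Lepr counts or by 13 CAR cell markers. Kitl lies lowest among the 9 under each scaling, from −2.80 to −1.34, and Lif lies highest, from 0.10 to 1.68.

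A list of 28 other stromal ligands was counted in the same way. Of 17 tested, 9 were called lower and 2 higher in Fgfr3CE-E12.5 cells, with a median log2 fold change of −1.03, and 10 others with a row were below the filter. The shares over all genes tested were 13.1% lower and 16.4% higher. The lower ones with the largest differences were Il33, an alarmin, at −4.53 (13.7 ± 3.68 against 0.588 ± 0.441 CPM, SD, n = 3 and 2), which reached the filter through Dlx5CE-E12.5 libraries alone, so that its direction was set, Il34, a ligand of the macrophage receptor CSF1R, at −3.18, Bmp4, a bone morphogenetic protein, at −2.28, and Esm1, a secreted proteoglycan, at −2.26. The higher ones were Tgfb1, a growth factor that leukocytes also make, at 3.91, which in turn reached the filter through the Fgfr3CE-E12.5 libraries alone, and Spp1, or osteopontin, at 2.61. Spp1 also stands in the osteoblast list. Csf1, the other CSF1R ligand, was at −0.80 (adjusted p = 0.00615), within the fold threshold.

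The receptors that answer to the niche factors were measured in the same libraries. Of 17 listed, 9 were tested, and 5 of these were higher in Fgfr3CE-E12.5 cells and 1 was lower, beside 16.4% and 13.1% of all genes tested. Of the 5, Kit, Il7r and Itgb7 reached the filter through the Fgfr3CE-E12.5 libraries alone, which set the direction in which they could differ, so that their share says nothing about the list. Kit, the receptor of stem cell factor, had 6.50 ± 2.53 CPM in Dlx5CE-E12.5 cells and 50.8 ± 14.9 CPM in Fgfr3CE-E12.5 cells (log2 fold change 2.96, adjusted p = 0.000623). The integrin chain genes Itgb7 and Itga9 were at 2.14 and 1.88, and Il7r, the IL-7 receptor, at 2.02. The lower one was Il6st, which encodes gp130, at −1.93 (adjusted p = 0.000597), with 476 ± 30.3 CPM against 125 ± 37.7 CPM. Cxcr4, the CXCL12 receptor, was below the filter at 1.55 ± 1.01 and 9.13 ± 2.34 CPM. Several of these receptors are genes of blood cells. All 12 pan-leukocyte, all 10 neutrophil and 5 of 6 macrophage markers tested were called higher in the same libraries. Among B lineage markers 3 of 7 were, and among erythroid markers 0 of 9. The part of blood cells in the receptor differences was not tested. With either Fgfr3CE-E12.5 library left out, Kit, Il7r and Itgb7 could not reach the filter of 2 libraries. The number called higher in those fits therefore cannot be compared with the 5 of the full fit.

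Of 18 regulators of stromal niche cells tested, 5 were lower, 3 were higher and 10 were not called. Over all genes tested, 13.1% were called lower and 16.4% higher, so the number of higher regulators lay near the share of all genes. Nfkbia, an NF-kB inhibitor and target, was at −1.94, Ebf3 and Ebf1, factors that keep the CAR cell state, were at −1.82 and −1.37, and Zeb2 was at −1.22. Foxc1, a forkhead factor of CAR cells known to sustain Cxcl12 and Kitl, went the other way, at 2.82 (47.7 ± 11.3 against 337 ± 31.0 CPM, adjusted p = 0.000134). Cbfb, the partner of RUNX factors, was at 2.03. Cebpb, a C/EBP factor, was at 7.63, and at 6.40 with the trend with GC content removed, and reached the filter through the Fgfr3CE-E12.5 libraries alone, with 2.25, 4.33 and 5.89 CPM in Dlx5CE-E12.5 cells and 796 and 845 CPM in Fgfr3CE-E12.5 cells. The count of lower regulators was 7 without Fgfr3CE-E12.5 replicate 2 and 2 without replicate 3. Lepr had 1528, 1516 and 1594 CPM in Dlx5CE-E12.5 cells and 1087 and 523 CPM in Fgfr3CE-E12.5 cells, at −0.94 (adjusted p = 0.0383), and was not called.

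Genes with a pattern close to that of a niche factor were named by the root mean square (RMS) difference of centred log2 CPM over the 5 libraries. For Cxcl12 they were Yod1 at 0.0239, Amot at 0.0531, Gtf2a1 at 0.0544, Gm20716 at 0.0627 and Secisbp2l at 0.0666. For Kitl they were Rspo2 at 0.0857, Rasgrf2 at 0.140, Slc5a3 at 0.153, Sned1 at 0.161 and Sash1 at 0.188. The nearest of each, Yod1 and Rspo2, had log2 fold changes of −1.69 and −2.98, close to those of Cxcl12 and Kitl as the measure of likeness requires.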

How the data were processed

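RNA of sorted cells was amplified by a SMART-Seq kit and made into Nextera XT libraries. The authors deposited whole-number read counts per gene, aligned to mm10. The submitters' processing notes name TopHat2 2.0.13, Bowtie2 2.2.1, HTSeq, Cufflinks, Cuffdiff, FastQC and DESeq2. The counting program's settings and strand use were not given in the sources used here. Amplified reads carry no molecular identifiers, so intervals and errors of counts do not cover amplification. Deposited normalized and log-transformed tables were not used.

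Gene names, lengths and overlaps came from GENCODE M21, which matched 29965 of 30046 rows. 76 Ensembl rows had no match and 5 were reporters. Counts of the 5 libraries (22035650 to 58166285 each) entered the quasi-likelihood test of edgeR 4.0.16 (R 4.3.3) with TMM scaling, on protein-coding genes and reporters with at least 10 CPM in at least 2 libraries (1 CPM for Lif). Genes were called at a Benjamini-Hochberg adjusted p under 0.05 with a log2 fold change beyond ±1, as in the study's methods. Normalized CPM are deposited counts over the library total times its TMM factor, and the SE is the absolute log2 fold change over the root of F. The fit was tested on simulated data in which few genes changed, equally many in each direction. That setting differs from these data and does not bear on the choice of scaling. Each library counted as 1 replicate, as in the study. Libraries of a group differed by more than sampling noise, but this spread includes amplification and so does not show that they are independent.

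Named genes were the 9 members, egfp and tdtomato, up to 4 called genes per direction and list, the 5 genes nearest in pattern to Cxcl12 and to Kitl, the 2 to 3 most abundant markers of a list, and Ptprc, Pecam1, Col2a1 and Pf4. Genes named outside this rule (Lepr, Csf1, Cxcr4 and Cebpd) were picked with their values known. The members and lists were chosen with earlier results of these data known. Alternatives tried were DESeq2 1.42.0, other scalings, filters, tests and features, a replicate block, GC and length trends, and leaving out each library. Python 3.11.15 and matplotlib 3.10.9 drew the plots.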

Additional observations from a re-analysis of the deposited data

How the results depend on the processing

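Cxcl12, Kitl, Il7, Angpt1, Vcam1, Il15 and Il6 were called lower under DESeq2 size factors, library size alone, the edgeR exact test, the DESeq2 Wald test, lower filters, all features, the GC and length trends and the replicate block. Leaving out 1 library at a time gave 6 to 7 members called lower and 0 higher, with Il15 lost without Fgfr3CE-E12.5 replicate 3. When an arm is left with 1 library, that library is assumed to vary like the other group. Genes that reach 10 CPM in the Fgfr3CE-E12.5 libraries alone then leave the test, which lowers the numbers called higher below. Genes tested were 9355 without Fgfr3CE-E12.5 replicate 2 and 9356 without replicate 3, beside 10088 in the full fit. Over all genes, leaving out 1 library gave 1029 to 1465 called lower and 997 to 1680 called higher, 7 to 10 ligands lower and 1 to 3 higher, 1 receptor lower and 1 to 5 higher, and 2 to 7 regulators lower and 2 to 4 higher. For Lif it gave −0.16 to 0.36. Library size alone shifted the median of all genes to 0.22, and 33.7% rather than 44.4% of calls were then lower.

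Replicates 2 and 3 exist in both groups, and the labels do not tie them to particular mice. The deviations of same-numbered libraries correlated at 0.12 and −0.04. The deviations of the 2 Fgfr3CE-E12.5 libraries mirror each other, so these values cannot show whether the numbers pair libraries. With the replicate block, 7 members, 1382 genes in all and 8 other ligands were called lower, and 1678 genes higher. The adjusted p of Flt3l became 0.0549.

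At the adjusted p alone, 2363 genes were lower and 2517 higher, with 2 receptors and 11 regulators lower. With either lower filter 8 receptors were higher, since more were tested, and with the length trend removed 3 regulators were lower and Lif was at −0.086. Scaling to egfp, Lepr and CAR cell markers, added after the data were seen, gave 4, 4 and 1 members lower, 457, 294 and 173 genes lower, and 4109, 5590 and 7787 genes higher, as a shift of all values does. Flt3l was then at 0.17, 0.49 and 0.95, and Il15 at 0.28 for the CAR cell markers. Lif passed the adjusted p under egfp (0.91) and both thresholds under CAR cell markers (1.68), and under Lepr it stood at 1.16. Per kb of the longest transcript, levels in Dlx5CE-E12.5 cells were 3910 for Cxcl12, 1088 for Vcam1, 78.2 for Angpt1, 22.2 for Il15 and 5.70 for Flt3l, and in Fgfr3CE-E12.5 cells 1232 for Cxcl12, 265 for Vcam1 and 3.60 for Flt3l, in the same order of members. The log2 ratio of Cxcl12 to egfp ranged from −0.97 to −0.82 over the left-out libraries. The 2 Fgfr3CE-E12.5 libraries differed up to 3.01-fold in a niche factor, and the limits that depth sets were not measured by thinning.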
